A study of Mus musculus with 24 samples.

Results

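The Ifi200 genes are a block of interferon-inducible genes on mouse chromosome 1, and 9 of them are described here: Aim2, Ifi213, Ifi209, Ifi207, Ifi204, Mndal, Ifi203, Ifi202b and Ifi205. They are 9 of the 35519 genes with transcripts in the deposited files. The members were chosen by their measured levels in the genotype groups, as genes whose on and off patterns could mark strain haplotypes. Every genotype difference of a member below is therefore a description. Where called members are counted in those contrasts, the count is no test of the members. Tests are given for what that choice did not use: the response to hormone withdrawal averaged over genotypes, the contrast of tissue with organoids, and genes that are not members. The annotation places 5 further family genes in the same block: Ifi206, Ifi214, Ifi208, Ifi211 and the pseudogene Ifi203-ps.

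RNA was sequenced from mouse prostate organoids, which are clusters of epithelial cells grown in Matrigel from dissociated anterior prostate lobes of mice aged 3 months, and from anterior lobes directly. Organoids labelled wild type (WT), Brca1+/- (HET) and Brca1-/- (KO) were grown with or without dihydrotestosterone (DHT), the androgen that prostate epithelium depends on, with 3 libraries in each of the 6 groups. Tissue labelled WT, HET and KO had 2 libraries in each of the 3 groups, and no age is given for these mice. The strain of the mice, how Brca1 was deleted, in which cells, and whether libraries of a group came from separate animals or cultures are not given in the sources used here, so the p-values cover no more than the spread among the libraries at hand. Library totals ran from 11965815 to 58445041 estimated reads, and the smallest was WT with DHT replicate 1.

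Proteins of this family carry a HIN domain that can bind DNA and, in most members, a pyrin domain that binds other proteins. Aim2 senses DNA in the cytosol and starts an inflammasome, the complex that activates caspase-1, while several Ifi members are nuclear proteins that modulate transcription and growth, and Ifi202b lacks the pyrin domain and can antagonise Aim2. Interferons induce most of the block through promoter elements bound by interferon regulatory factors, and inbred strains of mice are known to differ in which genes of the block they carry and express.

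Brca1 RNA was present in every library. Organoids labelled KO held 2.04 to 3.02 transcripts-per-million (TPM, a scale per transcript length on which genes can be compared), organoids labelled HET 3.13 to 4.1 and organoids labelled WT 2.84 to 3.26. All 6 KO libraries lay below all 6 HET libraries, and within each medium the HET libraries lay above the WT libraries, while KO and WT overlapped in both media. Tissue held 0.447 to 1.02 TPM of Brca1 in all 3 labels together, with overlapping groups. A sum over all transcripts of a gene cannot show the loss of single exons, so the labels are used below as labels.

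Cell type markers matched the material. Epcam, an epithelial surface protein, lay at 1051 to 1405 TPM in organoids and at 448 to 1332 TPM in tissue. Of the defining leukocyte markers, Tyrobp had 0 reads in every organoid library, Lyz2 at most 1 read, the receptor tyrosine phosphatase Ptprc 2 to 17 reads and Cd74 7 to 132 reads. Cd68, a lysosomal protein that is not limited to leukocytes, went the other way, with 55.8 to 120 TPM in organoids against 5.67 to 18.7 TPM in tissue. The 20 leukocyte markers summed to 44.4 to 111 counts-per-million (CPM) in organoids. In tissue they summed to 410 to 647 CPM in 5 libraries and to 1341 CPM in HET replicate 1, which therefore stands apart.

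Promoter sequences are shown first because the block shares an interferon-type element near its start sites. The search was for GAAANNGAAA, the core of the interferon-stimulated response element, on both strands of windows from 250 bases before to 50 bases after the RefSeq start on GRCm38.p6, and no other motif was searched. In all, 1131 of 32851 mouse promoter windows held it, or 3.44%. Each line gives 30 bases 5′ to 3′ on the gene's own strand, here the minus strand, with the motif in capitals. The windows of the other members with a match follow the pair that moved most between genotypes in organoids, Ifi205 and the non-member Ifi211.
Ifi205: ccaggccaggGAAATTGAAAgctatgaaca
Ifi211: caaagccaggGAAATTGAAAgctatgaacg
Ifi203: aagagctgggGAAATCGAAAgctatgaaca
Mndal: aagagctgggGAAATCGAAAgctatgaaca
Ifi207: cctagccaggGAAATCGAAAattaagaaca
Ifi213: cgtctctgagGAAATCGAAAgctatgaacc

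The Ifi205 element lies at chr1:174031870-174031899 and begins 134 bases before the start site. The same window holds a second match to the motif, on the opposite strand and beginning 23 bases after the start (chr1:174031713-174031742 with its flanks). The Ifi211 element lies at chr1:173913064-173913093 and begins 37 bases before its start, with the same GAAATTGAAA. For Ifi203 the element lies at chr1:173942508-173942537, 35 bases before 1 of the 2 listed starts. Mndal has the same 30 letters at chr1:173880204-173880233, 36 bases before 1 of its 2 listed starts. The window of its other start holds a match on the opposite strand, beginning 54 bases before that start (chr1:173879993-173880022 with its flanks). Those of Ifi207 and Ifi213 lie at chr1:173741831-173741860 and chr1:173599326-173599355, beginning 41 and 73 bases before their starts. The windows of Aim2, Ifi209 and Ifi202b hold no match to these letters, those of the non-members Ifi206, Ifi214 and Ifi208 hold one, and Ifi204 was not among the windows. A match is a description of letters, not of binding.

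**Figure D1:**
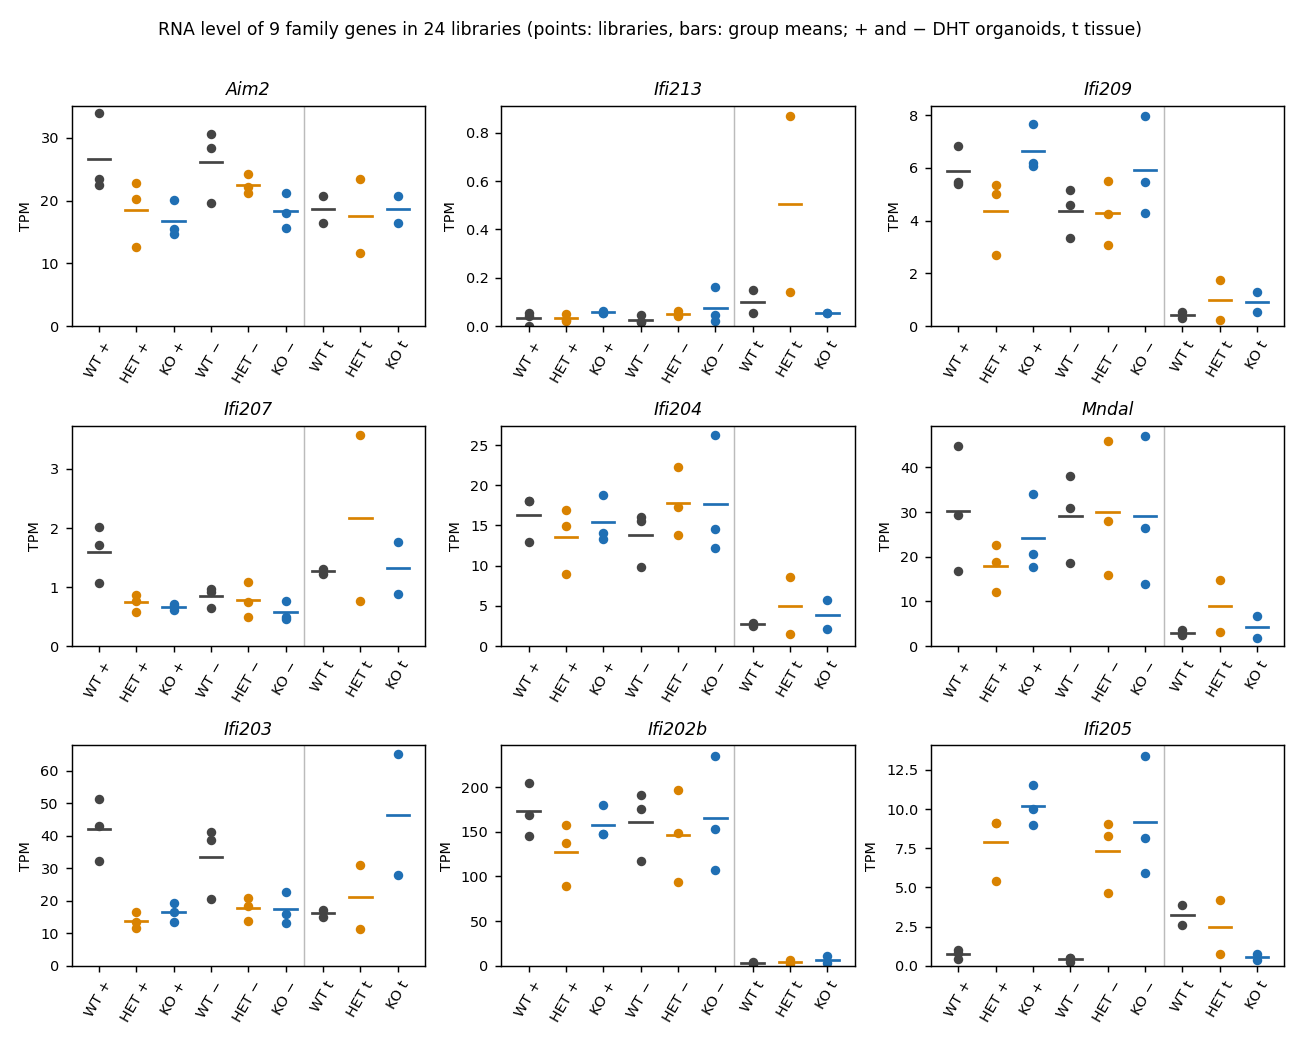
TPM (linear axis from 0) of each of the 9 members in all 24 libraries, with 1 point per library and a bar for the group mean. The x axis lists organoids with (+) and without (−) DHT and tissue (t) by genotype label. Ifi205 is near 0 in the 6 WT organoid libraries and at 4.66 to 13.4 TPM in the other 12, and Ifi202b is at 89.1 to 235 TPM in organoids against 1.83 to 11.2 TPM in tissue.

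Ifi205 showed the widest pattern. This gene encodes a HIN protein with a pyrin domain and lies at the distal end of the block (chr1:174011998-174031810, minus strand). Its level in WT organoids with DHT was 1, 0.425 and 0.842 TPM in replicates 1 to 3, from 10, 21 and 49 estimated reads. In the HET-labelled organoids with DHT it was 9.13, 5.39 and 9.12 TPM, from 447, 239 and 452 reads. KO-labelled organoids with DHT held 11.5, 9.01 and 10 TPM, from 562, 429 and 544 reads. All 6 libraries labelled HET or KO lay above all 3 WT libraries, and the lowest of them had more than the highest WT library in both reads and TPM.

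The same order held without DHT. WT organoids had 0.51, 0.222 and 0.518 TPM of Ifi205 (34, 13 and 30 reads). HET-labelled organoids had 9.04, 8.26 and 4.66 TPM, and KO-labelled organoids 13.4, 8.16 and 5.91 TPM. WT did not overlap with either label, whereas HET and KO overlapped with each other. No WT library was at 0: each held more than the 3 reads taken here as not detected.

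On the scale of the edgeR fit, Ifi205 was 11.1-fold higher in HET than in WT with DHT (log2 difference 3.47, SE 0.459) and 13.3-fold higher in KO than in WT (3.74, SE 0.461). Without DHT the log2 differences were 4.05 (SE 0.453) and 4.32 (SE 0.456). KO against HET gave 0.26 with DHT and 0.27 without, each smaller than its standard error of 0.376 and 0.378. Across the 6 organoid groups the log2 group means of Ifi205 spanned 4.41, against 1.54 for Ifi207, 1.43 for Ifi203, 0.93 for Ifi209, 0.77 for Aim2, 0.53 for Mndal, 0.48 for Ifi204 and 0.42 for Ifi202b.

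Tissue ran the other way for Ifi205. WT tissue held 2.58 and 3.91 TPM (104 and 132 reads), which is above every WT organoid library. HET-labelled tissue held 4.21 and 0.73 TPM (150 and 32 reads) and KO-labelled tissue 0.737 and 0.399 TPM (34 and 24 reads). KO lay below WT in both libraries with a log2 difference of -2.71 (SE 0.917), while HET spanned both. The protein-coding transcript carried most of the gene's TPM in every group, with medians of 0.429 TPM in WT organoids, 8.31 in HET, 9.05 in KO, 3.07 in WT tissue and 0.522 in KO tissue.

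**Figure D2:**
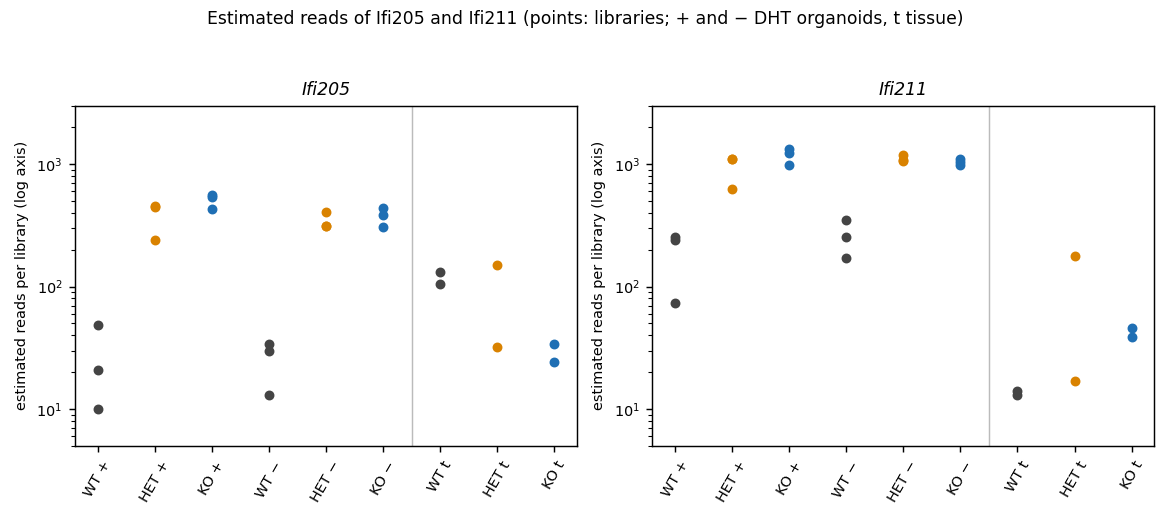
Estimated reads per library (log axis) of Ifi205 and of the non-member Ifi211, with 1 point per library and the groups named as genotype label with + or − DHT for organoids and t for tissue. Both genes are lower in the 6 WT organoid libraries than in the 12 others, and in KO tissue Ifi205 is below WT while Ifi211 is above it.

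Ifi211 is the nearest relative of Ifi205 by shared sequence and was not used in the choice of members. Of its 31-base words 49.5% occur in transcripts of Ifi205, and 20.5% of the words of Ifi205 occur in Ifi211, so reads from shared stretches were divided between them by Salmon. In WT organoids Ifi211 had 6.22, 5 and 4.23 TPM with DHT and 5.51, 3.15 and 4.79 TPM without. HET-labelled organoids had 21.2, 12.8 and 20.8 TPM with DHT, and KO-labelled ones 25.4, 19.2 and 21.6 TPM. Every HET and KO library lay above every WT library.

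Because Ifi211 shares words with Ifi205, its calls are not independent of the choice of that member. The edgeR quasi-likelihood test called Ifi211 in all 4 comparisons with WT. With DHT it rose by 1.89 in HET (SE 0.339, edgeR adjusted p 0.00239) and by 2.04 in KO (SE 0.34, edgeR adjusted p 0.00167) on the log2 scale. Without DHT it rose by 2.41 in HET (SE 0.335, edgeR adjusted p 0.000234) and by 2.47 in KO (SE 0.336, edgeR adjusted p 0.000263). The summed reads of Ifi205 and Ifi211 do not depend on how reads are divided between that pair. With DHT they were 83 to 288 in WT organoids, 862 to 1555 in HET and 1405 to 1884 in KO. Without DHT they were 185 to 383, 1371 to 1495 and 1300 to 1553. Summed TPM, which does depend on that division through length, was 5.07 to 7.22, 18.2 to 30.3 and 28.2 to 36.8 with DHT. Without DHT it was 3.37 to 6.02, 21.8 to 37.4 and 23.9 to 47. Of the 31-base words of Ifi211, 78.9% occur in some other gene, so division with genes outside the pair remains. Ifi211 had 14 and 13 reads in WT tissue, 39 and 46 reads in KO tissue and 179 and 17 reads in HET tissue, the opposite order of WT and KO to Ifi205.

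Genes whose log2 CPM over the 18 organoid libraries was most like that of Ifi205 were Cd38 (Pearson r 0.984), Kctd12b (0.981), Ifi211 (0.979), Tmem45a (0.975) and Apobec1 (0.975). These libraries share 6 groups, and r follows the split between WT and the other labels. Cd38, on chromosome 5, went from a mean of 6.21 CPM in WT to 17.7 in HET and 17.8 in KO. Tmem45a, on chromosome 16, went from 2.22 to 16.2 and 19.4 CPM.

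Ifi203, a HIN gene with many transcripts, had the reverse order of labels in organoids with DHT. WT libraries held 51.2, 32.1 and 42.9 TPM, HET 16.6, 11.6 and 13.4, and KO 19.4, 13.6 and 16.7. All WT libraries were above all HET and KO libraries, with log2 differences of -1.47 (SE 0.362) and -1.32 (SE 0.36). Without DHT, WT held 41.3, 20.4 and 38.6 TPM, HET 20.8, 18.4 and 13.9, and KO 22.8, 15.9 and 13.3. WT replicate 2 then overlapped with the other labels, and the log2 differences were -0.70 (SE 0.354) and -0.72 (SE 0.355).

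Tissue differed in which Ifi203 transcript was seen. In organoids a retained-intron transcript, an RNA in which an intron was not spliced out, made up 5.87% to 12.3% of the gene's TPM. Its share was 79.9% and 92.7% of TPM in WT tissue and 71.8% and 96.6% in KO tissue. The HET libraries were apart, at 9.9% in replicate 1 and 93.9% in replicate 2. The higher Ifi203 sum in KO tissue (27.9 and 65.1 TPM against 15.1 and 17.2 in WT, log2 difference 1.35, SE 0.601) lay mostly in that transcript, at 20.1 and 62.8 TPM. All other Ifi203 transcripts summed to 3.05 and 1.25 TPM in WT tissue, 7.86 and 2.21 TPM in KO tissue and 10.1 and 1.9 TPM in HET tissue, so these groups overlapped. The gene spans of Ifi203 (chr1:173920407-173942672) and Mndal (chr1:173849126-173942491) overlap on the same strand, and 4.71% of the 31-base words of Ifi203 occur in Mndal transcripts.

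Ifi207, which encodes another pyrin and HIN protein, was low throughout. With DHT it stood at 2.01, 1.07 and 1.71 TPM in WT, 0.771, 0.579 and 0.865 TPM in HET, and 0.706, 0.618 and 0.684 TPM in KO, with WT above both (log2 differences -1.07, SE 0.325, and -1.36, SE 0.327). Without DHT the WT libraries fell in the range of the others, at 0.918, 0.644 and 0.963 TPM, and the differences were -0.07 (SE 0.32) and -0.57 (SE 0.326). Of its 2 annotated transcripts, the 3145-base protein-coding one was listed at 0 in all 6 WT organoid libraries, in 4 of 6 HET, in 3 of 6 KO and in all tissue libraries. Since Salmon can move reads between transcripts of a gene, a 0 here is a value of the file and not an absence.

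Ifi209 and Aim2 differed less. Ifi209 ran from 2.7 to 6.84 TPM over WT and HET organoids and from 4.31 to 7.97 in KO. Its KO against WT log2 differences were 0.36 (SE 0.267) with DHT and 0.72 (SE 0.266) without, and the groups overlapped in both media. Ifi209 shares 46.8% of its 31-base words with Ifi214, so its reads too depend on how Salmon divided them.

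For Aim2, the cytosolic DNA sensor, the levels with DHT were 34, 23.5 and 22.5 TPM in WT, 22.8, 12.6 and 20.2 TPM in HET, and 20.1, 14.7 and 15.5 TPM in KO. KO lay below WT in all libraries by TPM (log2 difference -0.76, SE 0.311), and HET overlapped with WT. Without DHT WT (19.7 to 30.6 TPM) overlapped with KO (15.7 to 21.3 TPM) and the log2 difference was -0.35 (SE 0.307).

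Ifi202b, the pyrin-less member, had the highest level of the 9 in every organoid library. Its range was 117 to 205 TPM in WT organoids of both media, 89.1 to 197 in HET and 107 to 235 in KO, and the labels overlapped throughout. Log2 differences from WT lay between -0.41 and 0.12, and 3 of the 4 were smaller than their standard error. Strains are known to differ strongly in Ifi202b expression. Here no library of any label was without its RNA, and the fewest reads were 2268 in organoids and 61 in tissue.

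Ifi204 and Mndal, both nuclear HIN proteins, likewise overlapped between labels. Ifi204 held 9.86 to 18.1 TPM in WT organoids, 8.98 to 22.3 in HET and 12.2 to 26.2 in KO. Mndal held 16.7 to 44.7, 12 to 45.8 and 14 to 47.1 TPM. Ifi213 was close to absent from organoids, with 0 to 8 reads per library, and did not pass the filter on low counts there, so 8 of the 9 members entered the organoid fit.

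Among the non-members, Ifi214 fell by 2.24 in HET against WT with DHT (SE 0.409, edgeR adjusted p 0.00266) on the log2 scale, from 17, 39 and 67 reads in WT to 14, 8 and 13 in HET. Its difference in KO was -1.16 (SE 0.385, edgeR adjusted p 0.125). The pseudogene Ifi203-ps, which shares 42.9% of its 31-base words with Ifi203, differed by -1.16 (SE 0.342, edgeR adjusted p 0.0513) in HET and by -0.96 (SE 0.338, edgeR adjusted p 0.16) in KO with DHT. The HET call depended on the setting: the adjusted p was 0.0348 with a replicate block, 0.0155 by DESeq2, 0.0394 with only the groups compared and 0.0479 with the stricter filter. In KO it was 0.0497 with only the groups compared. Ifi206 and Ifi208 had at most 7 reads in any organoid library and were not tested there.

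**Figure D3:**
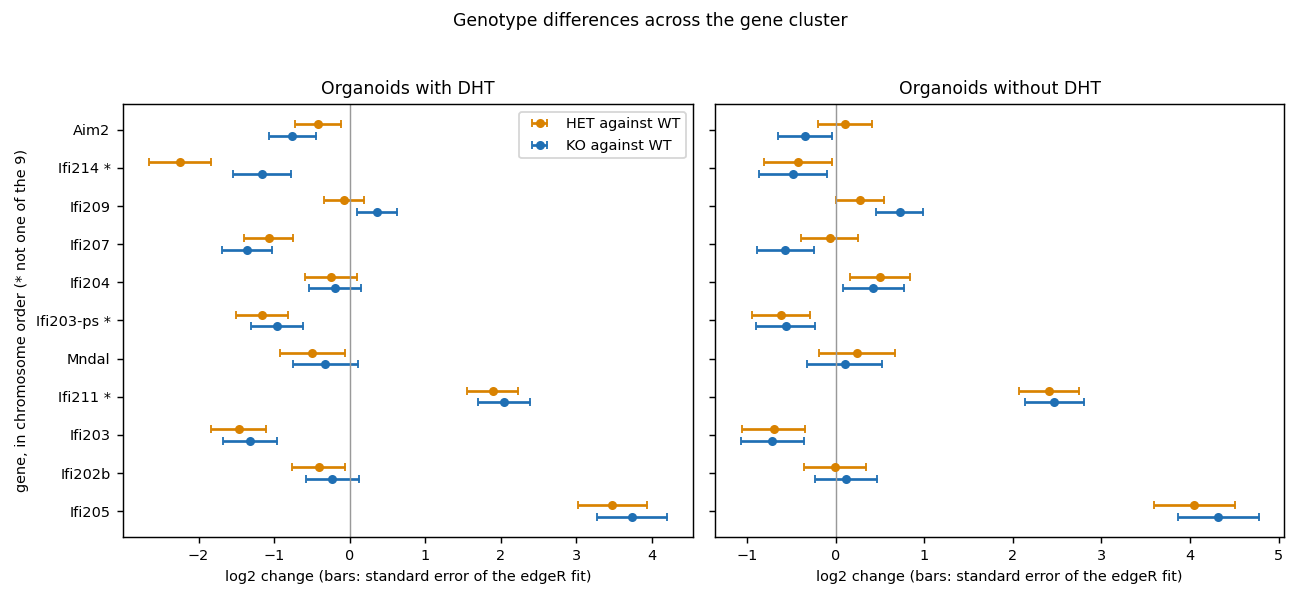
Log2 difference of HET (orange) and KO (blue) from WT in organoids with and without DHT, for the 8 members and 3 other family genes (asterisks) in the fit, in chromosome order, with standard errors of the edgeR fit. With DHT all genes shown lie below 0 in both labels except Ifi205 and Ifi211, which are higher, and Ifi209, which is above 0 in KO. The 4 Ifi205 values lie between 3.47 and 4.32.

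Counts of called members are given with the share of all 15427 tested genes that the same test called. In HET against WT with DHT 2 of 8 members passed (Ifi205 and Ifi203) where 7.51% of all genes did, and in KO against WT with DHT 2 of 8 (Ifi205 and Ifi207) where 4.11% did. Without DHT 1 of 8, Ifi205, passed in HET against WT, with 7.81% of all genes, and again in KO against WT, with 4.8%. KO against HET gave 0 of 8 with DHT (3.54% of all genes) and 0 of 8 without (2.92%), and no member had an unadjusted p under 0.05 there. The choice of members used these contrasts, so the counts are description, and setting them beside the share of all genes tests nothing. Ifi203 was not called in HET without WT with DHT replicate 1 or without HET with DHT replicate 2, and Ifi207 not in KO without WT with DHT replicate 1 or 3 or without any 1 of the KO libraries with DHT.

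In tissue no gene of 16753 passed the edgeR test in HET against WT (0.0%), KO against WT (0.0%) or KO against HET (0.0%), and 457, 321 and 97 genes had an unadjusted p under 0.05. DESeq2 called 10, 25 and 10. Several tissue values of HET rested on HET replicate 1, the library with the highest sum of leukocyte markers. There Mndal stood at 14.7 TPM against 3.16 in HET replicate 2, Ifi204 at 8.6 against 1.49, Ifi209 at 1.77 against 0.23, and Ifi213 at 49 reads against 12. Without that library the HET against WT log2 differences went from 1.46 to -0.39 for Mndal, from 0.62 to -0.96 for Ifi204, from 1.31 to -1.19 for Ifi209, from 1.76 to 0.33 for Ifi213, from 0.41 to -0.90 for Ifi207, from 0.21 to -0.77 for Ifi202b, from -0.82 to -2.42 for Ifi205 and from -0.55 to -0.88 for Aim2. Ifi203 went the other way: replicate 2 was the higher library by its sum, and the difference went from 0.18 to 0.72 without replicate 1 and to -0.68 without replicate 2. Among the non-members it also held 179 reads of Ifi211, 58 of Ifi208 and 56 of Ifi206. The part of leukocyte RNA in these values was not tested, and in bulk RNA a change in the share of a cell type and a change in RNA per cell cannot be told apart.

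Interferon-stimulated genes varied between tissue libraries as well. The 46 such genes listed summed to 748 CPM in WT replicate 2, 2251 in WT replicate 1, 4995 and 2554 in the HET libraries and 5019 and 2512 in the KO libraries. In KO tissue, replicate 1 was above replicate 2 for Ifi204 (5.74 against 2.06 TPM), Mndal (6.75 against 1.78), Ifi209 (1.31 against 0.537) and Ifi202b (11.2 against 2.86), as it was for that sum. Ifi205 had the same order, with 34 reads in replicate 1 and 24 in replicate 2. For the retained-intron transcript of Ifi203 the order was reversed. Not all family genes followed the sum: Aim2 had 957 and 964 reads in the 2 KO libraries and Ifi213 had 4 and 5. The non-member Ifi211 had 39 reads in replicate 1 and 46 in replicate 2.

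Hormone withdrawal averaged over labels was tested next, as the choice of members compared genotypes and not media. None of the 8 members passed on average over the 3 labels, while 4.96% of all genes did. Within a label, withdrawal uses libraries that also made the genotype differences behind the choice, so per-label values of members are description. Per label 0 of 8 passed in WT (1.3% of all genes), 0 of 8 in HET (0.707%) and 0 of 8 in KO (0.557%). Under an unadjusted p of 0.05 there was 1 member on average and 1 in WT, Ifi207 both times, and none in HET or KO. DESeq2 likewise called none of them.

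The mean log2 differences ran from -0.42 for Ifi207 (SE 0.187, 95% interval -0.78 to -0.05, edgeR adjusted p 0.291) through -0.32 for Ifi209 and -0.31 for Ifi205 to 0.25 for Mndal (SE 0.248, interval -0.24 to 0.73, edgeR adjusted p 0.75). For Ifi202b it was 0.03 with an interval of -0.36 to 0.43, and for Aim2 0.24 with an interval of -0.11 to 0.58. In WT all 8 members had a value below 0, with a median of -0.35 against 0.01 over all genes. The largest was that of Ifi207 at -1.01 (SE 0.322). These 8 values are not independent, as the members share sequence and single libraries were highest or lowest for nearly all of them. Among WT libraries, replicate 1 with DHT was highest for 8 of 8, and replicate 2 was lowest for 8 of 8 in each medium. The share of all genes below 0 was not counted. HET and KO had 5 of 8 values above 0 each, with medians of 0.28 and 0.19.

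The response to withdrawal was not shown to differ between labels. No gene at all passed the interaction test for HET against WT (0.0%), KO against WT (0.0%) or KO against HET (0.0%), with 433, 417 and 151 genes under an unadjusted p of 0.05, and DESeq2 called 6, 6 and 1. All 8 members had interaction values above 0 for HET against WT (median 0.66, all genes 0.01) and for KO against WT (median 0.50, all genes 0.01). These 2 comparisons share the WT libraries, and the values of the 8 members are not independent of each other. Ifi207 had the largest at 1.00 (SE 0.455) for HET against WT. An interaction value is also the difference between the genotype differences of the 2 media. The choice of members used those differences, so the members' interaction values are description.

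**Figure D4:**
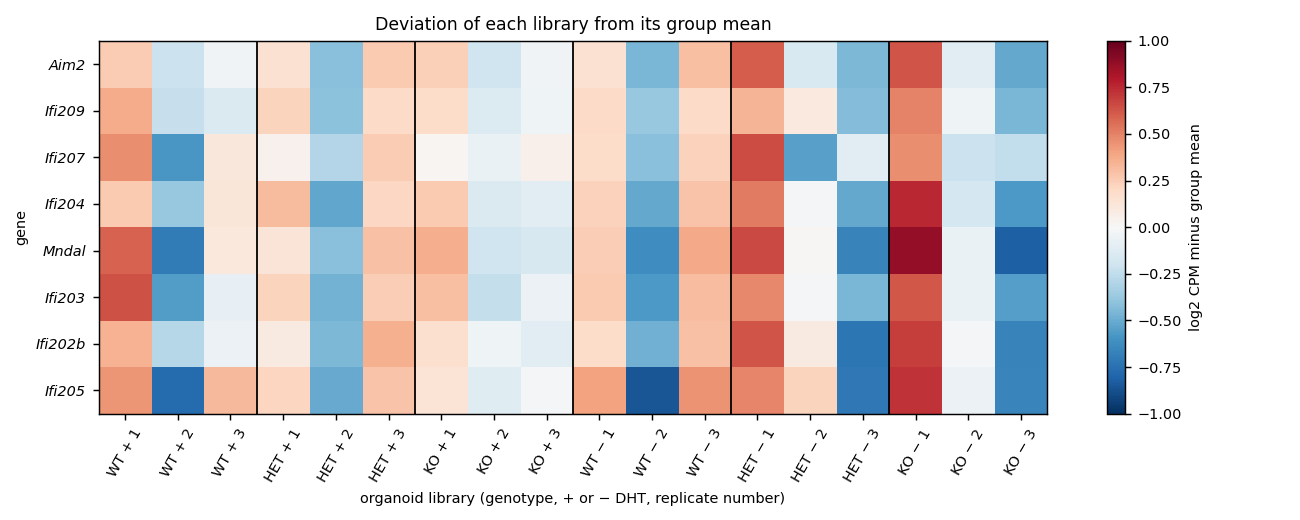
Log2 CPM of 8 members in each of the 18 organoid libraries minus the mean of its group of 3 (colour scale from -1 to 1, red above and blue below the group mean). Columns are libraries named by label, + or − DHT and replicate number, with black lines between groups. Most columns have 1 colour: in every group a single library is lowest for 7 or 8 of the 8 members.

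Within each organoid group a single library was lowest for 7 or 8 of the 8 members. The share of all tested genes doing so was not counted, so the pattern is not shown to be particular to the members. The members also share sequence, so their estimated reads are not independent. In 4 of the organoid groups 1 library was lowest for 8 of 8 members by CPM: WT with DHT replicate 2, HET with DHT replicate 2, WT without DHT replicate 2 and KO without DHT replicate 3. In the other 2 groups 1 library was lowest for 7 of 8, KO with DHT replicate 2 and HET without DHT replicate 3. Of the 46 interferon-stimulated genes, WT without DHT replicate 2 was lowest for 38, KO with DHT replicate 2 for 39, WT with DHT replicate 2 for 36 and HET with DHT replicate 2 for 27. Without DHT the interferon-stimulated genes went both ways in the libraries lowest for the members: HET replicate 3 was lowest for 18 and highest for 21 of 46, and KO replicate 3 was lowest for 22 and highest for 17.

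The spread within a group was wide for the abundant members. Ifi202b ran from 94.2 to 197 TPM and Mndal from 16 to 45.8 TPM within HET without DHT, and from 107 to 235 TPM and 14 to 47.1 TPM within KO without DHT. The highest libraries of those groups, replicate 1 in each, had the fewest reads in their groups, at 29409564 and 25233980. WT with DHT replicate 1, the smallest of all libraries, was also highest for 8 of 8 members. HET with DHT replicate 2 had the fewest reads of its group, 37850939, and was lowest for 8 of 8. Whether depth plays a part was not tested.

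Tissue against organoids with DHT, averaged over labels, gave the highest share of called members. Of 9 members 6 passed, and 75.3% of all 17912 tested genes did, so that share is close to the background. Ifi202b fell by 5.35 on the log2 scale (SE 0.388, edgeR adjusted p 4.51e-10), Ifi209 by 3.16 (SE 0.373), Ifi204 by 2.33 (SE 0.338), Mndal by 2.07 (SE 0.382) and Ifi205 by 1.49 (SE 0.354). Ifi213 rose by 1.79 (SE 0.526). With 0 to 8 reads per organoid library, it failed the filter there and entered this fit through its tissue reads alone. A rise was thus the only direction open to Ifi213, and its place among the 6 is description. The median over the members was -1.49 and over all genes 0.18.

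In levels, Ifi202b stood at 145 to 205 TPM in WT organoids with DHT and at 4.42 and 1.83 TPM in WT tissue. No tissue library reached the lowest organoid library for Ifi202b, Ifi209 or Ifi204. The fall of Ifi205 is an average over labels that went different ways, since WT tissue was above WT organoids and KO tissue below KO organoids. Ifi203 (-0.08, SE 0.261, edgeR adjusted p 0.791), Aim2 (0.07, SE 0.203, edgeR adjusted p 0.783) and Ifi207 (0.46, SE 0.275, edgeR adjusted p 0.139) did not pass, and for Ifi203 the sum hides the change of transcript described above.

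Of the non-members in that contrast, Ifi211 fell by 4.14 (SE 0.406), Ifi203-ps fell by 2.13 (SE 0.307) and Ifi214 by 1.04 (SE 0.284), with edgeR adjusted p of 3.03e-08, 4.53e-06 and 0.00275. Ifi208 rose by 3.32 (SE 0.743). With 0 to 7 reads per organoid library, it too entered the fit through tissue alone, so its rise is description. Leukocyte markers moved with the contrast: 18 of 20 rose and 1 fell, with a median of 7.66. All 15 stromal and endothelial markers rose, with a median of 9.41. Ifi213 and Ifi208 rose beside these markers, whose part in the result was not tested.

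The order of the members by level per length differed between WT and HET in the place of Ifi205 and of Ifi203, and Mndal and Aim2 changed order. In WT organoids of both media the medians were 172 TPM for Ifi202b, 40.0 for Ifi203, 30.1 for Mndal, 25.9 for Aim2, 15.8 for Ifi204, 5.27 for Ifi209, 1.02 for Ifi207, 0.514 for Ifi205 and 0.0304 for Ifi213. In HET organoids they ran from 143 TPM for Ifi202b through 21.7 for Aim2, 20.8 for Mndal, 15.9 for Ifi204, 15.2 for Ifi203, 8.65 for Ifi205, 4.63 for Ifi209 and 0.754 for Ifi207 to 0.0433 for Ifi213. Aim2, Mndal, Ifi204 and Ifi203 had overlapping ranges there. Ifi205 thus stood below Ifi207 in WT and above Ifi209 in HET. In KO organoids the medians were 23.4 TPM for Mndal, 16.9 for Aim2, 16.3 for Ifi203 and 14.3 for Ifi204. Ifi205 followed at 9.5 TPM, above Ifi209 at 6.12.

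Other genes of the same pathways give the setting of these values. Of 14 tested inflammasome genes, 1 was called in HET with DHT, 1 in KO with DHT, 2 in HET without DHT and none in KO without DHT, all of them higher. Naip5, a sensor of bacterial flagellin, rose by 0.79 in HET with DHT (SE 0.0968, edgeR adjusted p 8.58e-05) and by 0.57 in KO with DHT (SE 0.0966, edgeR adjusted p 0.00204). Nlrc4, its partner in the complex, rose by 1.28 in HET without DHT (SE 0.367, edgeR adjusted p 0.0441), as did Naip5. Of 19 tested DNA sensing genes none was called in HET, and in KO with DHT the exonuclease Trex1 fell by 1.35 (SE 0.341, edgeR adjusted p 0.0332) and the sensor Zbp1 by 1.08 (SE 0.288, edgeR adjusted p 0.0467).

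Interferon-stimulated genes went both ways in organoids. Of 46 tested, 4 were higher and 4 lower in HET with DHT, 1 and 3 in KO with DHT, 5 and 2 in HET without DHT, and 2 and 4 in KO without DHT. Epsti1 rose by 2.48 in HET (SE 0.465, edgeR adjusted p 0.00329) and by 3.09 in KO (SE 0.464, edgeR adjusted p 0.000665) with DHT. Mx2, an antiviral GTPase, fell by 1.61 in HET (SE 0.207, edgeR adjusted p 0.00014) and by 1.02 in KO (SE 0.203, edgeR adjusted p 0.0067) with DHT. The list's medians against WT lay at -0.11 and -0.30 with DHT, beside member medians of -0.42 and -0.28. Without DHT the list had medians of -0.02 and -0.15, and the members 0.17 and 0.11, of the opposite sign. On withdrawal averaged over labels 1 of the 46 passed, Rsad2, which fell by 0.56 (SE 0.135, edgeR adjusted p 0.0231).

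Genes elsewhere in the genome that are known to vary between strains were listed for comparison, 9 in all, of which 8 were matched and 5 tested in organoids. Glo1, an enzyme of methylglyoxal breakdown, rose by 0.46 in HET with DHT (SE 0.0902, edgeR adjusted p 0.00435) and by 0.47 without (SE 0.09, edgeR adjusted p 0.00365). Mx1 fell by 0.90 in KO with DHT (SE 0.205, edgeR adjusted p 0.018) and by 0.91 without (SE 0.205, edgeR adjusted p 0.0155). Of the rest, H2-Ea-ps had 0 reads in all 24 libraries, Nlrp1b at most 2 reads in organoids and 9 to 141 in tissue, and Casp4 and Wdfy1 were present in every library.

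Genes around the block were counted to see whether they differed as well. Within 5 Mb of the members the annotation has 178 other genes, of which 80 were tested in organoids. In HET against WT 7 were called with DHT (8.75%, beside 7.51% of all genes) and 9 without (11.2%, beside 7.81%). In KO against WT 4 were called with DHT (5.0%, beside 4.11%) and 9 without (11.2%, beside 4.8%). KO against HET gave 2 with DHT (2.5%, beside 3.54%) and 3 without (3.75%, beside 2.92%), and 5 without DHT when replicate numbers were kept as a block.

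Called in both media were 6 neighbours in HET, 3 in KO and 2 in both labels. Those 2 were Fcgr3, a receptor for immunoglobulin G, and the pseudogene Tma7-ps. Fcgr3 (chr1:171051174-171064935, 2.29 Mb from the block) had a mean of 20.1 CPM in WT with DHT, 12.5 in HET and 0.481 in KO, and fell by 0.69 in HET (SE 0.171, edgeR adjusted p 0.0201) and by 5.38 in KO (SE 0.216, edgeR adjusted p 2.54e-10). Without DHT it stood at 8.89, 5.27 and 0.171 CPM. Its mean in KO lay far below that in HET, which was not so for Ifi205.

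Tma7-ps (chr1:171711088-171711282, 1.64 Mb from the block) had means of 0.0 CPM in WT, 3.87 in HET and 3.4 in KO with DHT, and of 0.0202, 4.29 and 4.0 CPM without. It passed the test in all 4 comparisons with WT, with edgeR adjusted p from 2.99e-05 to 8.37e-05, and as for Ifi205 its WT means were the lowest. Hsd17b7, a sterol enzyme 3.38 Mb away, fell by 0.91 in HET (SE 0.128, edgeR adjusted p 0.000318) and differed by -0.34 in KO (SE 0.127, edgeR adjusted p 0.208) with DHT. Cfap126 and Nuf2 rose in HET in both media, Cfap126 also in KO without DHT, and Rgs4 rose in KO in both.

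The nearest tested gene on the left was Dusp23, 0.718 Mb away, which rose in HET by 1.05 with DHT (SE 0.301, edgeR adjusted p 0.045) and by 1.02 without (SE 0.287, edgeR adjusted p 0.0387). In KO it rose by 1.30 without DHT (SE 0.287, edgeR adjusted p 0.0139), and with DHT the difference was 0.77 (edgeR adjusted p 0.236). On the right, Olfr432, 0.0174 Mb away, was called in KO without DHT (1.66, SE 0.422, edgeR adjusted p 0.0331) at a mean of 0.546 CPM against 0.169 in WT. Inside the block, Gm7897, Gm38050 and Gm18445 were tested and none passed in a comparison with WT. Called and uncalled genes lay next to each other inside the block and on both sides of it.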

How the data were processed

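RNA-seq of 24 libraries was used. The deposited files give, per the file headers, estimated counts of reads, TPM, and transcript lengths and effective lengths (other values, not tested) for 116945 mouse transcripts. The submitters' processing notes give Salmon 0.13.1 as the source of the deposited values, and also name hg38 although the identifiers are mouse. The index, trimming and strandedness are not given in the sources used here, so reads of overlapping antisense genes cannot be told apart, and reads of near-identical paralogs were divided by Salmon.

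Counts and TPM were summed per gene with GENCODE mouse release 21, and counts were rounded. In each library 922 transcripts without a gene (0.227% to 0.327% of reads) were left out. The edgeR 4.0.16 quasi-likelihood test (R 4.3.3, TMM scaling, filterByExpr) was fitted to 18 organoid libraries (15427 genes), 6 tissue libraries (16753) and all 24 (17912), with Benjamini-Hochberg adjustment over all genes of a fit, 0.05 as threshold and no fold threshold. It was tested on simulated data. Intervals of log2 differences are approximate 95% intervals from the standard error. Groups came from the labels. Promoters are RefSeq windows of GRCm38.p6.

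The members and gene lists were chosen with earlier results of these data known. Named are all members, the annotated other family genes, from each list up to 3 called genes of lowest p (else the 2 most abundant), the nearest tested neighbours and up to 6 neighbours called in both media, and the 5 genes most like the member of widest range. Neighbours inside the block, Casp4, Wdfy1, Nlrp1b and H2-Ea-ps were named after their values were seen.

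Replicate numbers are shared by the labels of all groups. Among organoid comparisons, deviations from group means of same-numbered libraries correlated over 0.1 in every pair only for KO against HET without DHT (0.613, 0.231 and 0.691). The main fits nevertheless held no pairing for this or any other comparison. With a replicate block as an alternative, 0 members and 5 neighbours were called in KO against HET without DHT. Tissue has 2 libraries a group, whose 2 correlations are equal by construction (0.408 for KO against HET, 0.109 for KO against WT), and was not taken as paired. Alternatives were DESeq2 1.42.0, its size factors, no and a stricter filter (over 1 CPM), a replicate block, fits of only the groups compared, transcript-length offsets, and leaving out each library.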

Additional observations from a re-analysis of the deposited data

Results flagged for a closer look

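Ifi205 in KO against WT moved opposite ways in the 2 materials, with no overlap of libraries in either: the log2 difference was 3.74 in organoids with DHT, 4.32 in organoids without DHT and -2.71 in tissue. Ifi203 did the same in KO against WT with DHT, with -1.32 in organoids and 1.35 in tissue, where most of its TPM lay in the retained-intron transcript. The difference between the materials was not tested for either gene, since these genotype contrasts chose the members. Tissue had 2 libraries a label, so a lack of overlap there says little. How many of all genes show the same pattern was not counted.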

How the results depend on the processing

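Ifi205 against WT in organoids ranged from 3.41 to 4.52 over the 7 alternatives that keep all libraries, and Ifi203 with DHT from -1.59 to -1.27. The count of called members in KO against WT with DHT was 4 when only the groups compared were fitted (Aim2, Ifi203, Ifi205 and Ifi207). Leaving out 1 library gave 1 to 3 called members in HET against WT with DHT and 1 to 3 in KO against WT with DHT. Counts over all genes moved by more than 1.5 times too. DESeq2 called 1164 genes on withdrawal on average (edgeR 765), and 396, 297 and 281 in WT, HET and KO (edgeR 200, 109 and 86). It called 989 in KO against WT with DHT (634) and 1164 without (741), and 988 and 800 in KO against HET (546 and 450). With only the groups compared, withdrawal gave 94, 0 and 12 genes, HET against WT without DHT 398 (1205), KO against WT without DHT 201 (741), and KO against HET 1238 with and 27 without DHT. Length offsets gave 273 in KO against HET without DHT, the block 167 on withdrawal in HET and 1 for the interaction of HET with WT, and no filter 2 and 1 in HET and KO tissue against WT. Averaged over labels, withdrawal called 0 members under every alternative.

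Counts of called neighbours depended on the setting. In HET against WT without DHT there were 3 with only the groups compared. In HET against WT with DHT there were 4 with length offsets. In KO against WT without DHT there were 15 by DESeq2 and 2 with only the groups compared. In KO against HET with DHT there were 7 by DESeq2, 8 with only the groups compared, 5 with a replicate block and 1 with length offsets. Without DHT the counts were 7, 1, 5 and 1. Leaving out 1 library gave 2 to 9 in HET against WT with DHT, 4 to 13 in KO against WT without DHT, and 1 to 3 with and 1 to 5 without DHT in KO against HET.

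With a replicate block, 1 member (Ifi207) was called on withdrawal in WT, where there was none without it, Ifi203-ps was at -0.07 for HET against WT in tissue and Ifi211 at -0.01 for withdrawal. It also added Ifi207 in HET and Ifi203 in KO against WT with DHT, 3 called members in each, and moved no other count of called members. Same-numbered libraries correlated best with each other throughout in 1 of 9 organoid comparisons.

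Values near 0 changed sign. With length offsets the tissue contrast was -0.40 for Aim2 and 0.01 for Ifi203. Leaving out 1 library, the lowest and highest values were -0.08 and 0.17 for Aim2, -0.35 and 0.07 for Ifi203 and -0.02 and 0.69 for Ifi207 in tissue against organoids. For withdrawal they were -0.10 and 0.13 for Ifi202b, -0.01 and 0.24 for Ifi203, -0.06 and 0.18 for Ifi204 and -0.09 and 0.11 for Ifi211. For HET against WT in tissue they were -1.19 and 0.84 for Ifi203-ps, -0.16 and 3.35 for Ifi211 and -0.14 and 0.50 for Ifi214. Low counts limit Ifi213, Ifi206, Ifi208 and Ifi214.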
